A study of Mus musculus with 2 samples.

Results

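The 6 genes described here encode 4 fibroblast growth factors, Fgf2, Fgf7, Fgf10 and Fgf13, and 2 receptors, Fgfr1 and Fgfr2. Each was read by its symbol from both deposited matrices, and each symbol matched 1 of the 32285 gene rows. The 6 genes were chosen by their UMI counts per cell class and their diet ratios in an earlier reading of these same libraries, so those levels and ratios are given as descriptions. Cells came from subcutaneous mouse tumours of animals on a control diet (1 library) or on a diet free of the amino acids serine and glycine (1 library), and were profiled with 10x Genomics 3′ chemistry, which counts each captured mRNA once by its unique molecular identifier (UMI). The diet of each library was read from the letters CT and SG in its label together with the study's design text. The sources used here do not give mouse strain, sex and age, the tumour line, the length of the diet or the number of animals per library, and the dissociation protocol attached to both libraries speaks of human heart tissue. Each diet is represented by 1 library, so no replicate exists: a difference between diets cannot be told apart from a difference between these 2 libraries, no test was made, and every interval below covers counting error only.

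Fibroblast growth factors are secreted proteins that bind receptor tyrosine kinases on the cell surface together with heparan sulphate chains. Fgf7 and Fgf10 belong to 1 subfamily that connective-tissue cells classically make and that acts on the epithelial splice form of Fgfr2, while Fgf2 is a ligand of Fgfr1 held in the matrix. Activated receptors recruit the docking protein Frs2 and signal through Ras and a kinase cascade, which induces feedback inhibitors such as the Sprouty, Spred and dual-specificity phosphatase genes. Fgf13 is different: it is an intracellular homologous factor that stays in the cell, binds voltage-gated sodium channels and is best known from neurons. Counts from 3′ libraries do not separate the receptor splice forms.

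After quality filters and removal of called doublets, 13477 cells of the control library and 17882 of the serine/glycine-free library remained, with medians of 11278 and 7039 UMIs per cell. Of these, 10728 and 13187 cells formed 10 clusters that met the marker rule for no leukocyte, stromal or vascular class (at least 3 markers of a class enriched). These are called presumed tumour cells, since the labels name no tumour marker. They held Hmga2 at 2035 and 1948 CPM (UMIs per 1000000 UMIs of the class). Hmga2 was picked as a reference because these large clusters share it, so its level does not bear on the name. The epithelial marker Epcam and the melanocyte marker Mlana were under 0.03 CPM in both libraries. Among other panel genes, the melanocyte regulator Mitf stood at 146.6 and 135.4 CPM and the keratin Krt18 at 31.0 and 10.5 CPM. Mitf was nearly all of its 6-gene panel, which summed to 146.8 and 135.8 CPM. Krt18 was likewise most of its panel. Mitf was also at 149 and 175 CPM in monocyte/macrophage-like cells and at 128 and 156 CPM in fibroblast-like cells. In endothelial-like cells it was lower, at 25.7 and 17.0 CPM. Its level therefore does not bear on the tumour type, which the labels do not settle. Fibroblast-like cells numbered 105 and 134 and held all 12 fibroblast markers, among them Col1a1 at 4757 and 6796 CPM. Monocyte/macrophage-like cells numbered 1558 and 1981 and comprised a C1q-positive macrophage-like cluster (1021 and 1334 cells) and a monocyte-like cluster led by F10, Cxcl3 and Chil3 (537 and 647 cells). The libraries shared 87 cell barcodes.

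The promoters of Fgf7 and Fgf10 are shown because these 2 ligands were higher together in tumour cells of the serine/glycine-free library and ranked near each other across clusters. Each run gives the 250 bases before the RefSeq transcription start (build GRCm38.p6, plus strand), 5′ to 3′, with each CG dinucleotide, the pair that DNA methylation targets, in capitals. The Fgf7 run covers chr2:126034408-126034657 and the Fgf10 run chr13:118714449-118714698.
Fgf7: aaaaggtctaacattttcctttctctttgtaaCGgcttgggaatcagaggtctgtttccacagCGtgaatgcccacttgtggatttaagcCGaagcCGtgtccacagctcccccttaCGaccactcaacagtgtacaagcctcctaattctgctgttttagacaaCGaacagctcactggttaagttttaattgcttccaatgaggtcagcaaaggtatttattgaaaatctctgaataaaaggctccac
Fgf10: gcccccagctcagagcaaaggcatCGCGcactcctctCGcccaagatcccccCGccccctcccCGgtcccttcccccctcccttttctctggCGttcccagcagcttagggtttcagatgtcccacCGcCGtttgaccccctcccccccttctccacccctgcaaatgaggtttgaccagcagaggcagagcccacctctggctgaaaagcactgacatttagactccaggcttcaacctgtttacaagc
The Fgf7 run held 6 CG dinucleotides and 43.6% G and C, and the Fgf10 run held 8 and 61.2%. Over the 32851 mouse promoters of the RefSeq table the same window had medians of 6 CG dinucleotides and 52.4% G and C, so by base composition the 2 genes lie on opposite sides of the median. Both strands were searched for 7 motifs, and no match was found in either run. They were the TATA box (letters TATAAA, present in 12.4% of all promoters), the hypoxia response core (ACGTG, in 16.6%), the E-box that contains that core (CACGTG, in 6.02%), the AP-1 site (TGANTCA, in 6.75%), a C/EBP-type site (TTGCNNAA, in 9.56%), the glucocorticoid receptor half-site (AGAACA, in 16.1%) and an ETS-type site (CCGGAAG, in 6.91%). Absence of these letters from the window says nothing about any factor. RefSeq promoters matched 5 of the 6 genes, all but Fgfr1.

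The secreted ligands Fgf7 and Fgf10 were found in presumed tumour cells and in fibroblast-like cells, and both were about 2 times higher in tumour cells of the serine/glycine-free library. Fgf7, the keratinocyte growth factor, stood at 42.0 CPM (interval 41.0 to 43.1) in tumour cells of the control library and at 86.6 CPM (85.0 to 88.2) in those of the serine/glycine-free library, from 6196 and 11023 UMIs. The log2 ratio of the level, serine/glycine-free over control, was 1.04 (interval 0.999 to 1.09), a 2.06-fold difference. Fgf10, which directs budding of lung and limb in the embryo, stood at 29.7 CPM (28.8 to 30.6) and 64.5 CPM (63.1 to 65.9), a log2 ratio of 1.12 (1.07 to 1.17). For both genes the counting intervals of the libraries lay far apart. In GENCODE M21 the Fgf7 locus overlaps Fam227b on the other strand, so Fgf7 counts are uncertain where counting does not use strand. Of 13331 genes with at least 100 UMIs in tumour cells over both libraries, 4.17% were higher by 1.5 times or more in the serine/glycine-free library and 3.79% were lower by as much. Since the genes were proposed with these ratios known, nothing is read from their place among the 4.17%.

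**Figure D1:**
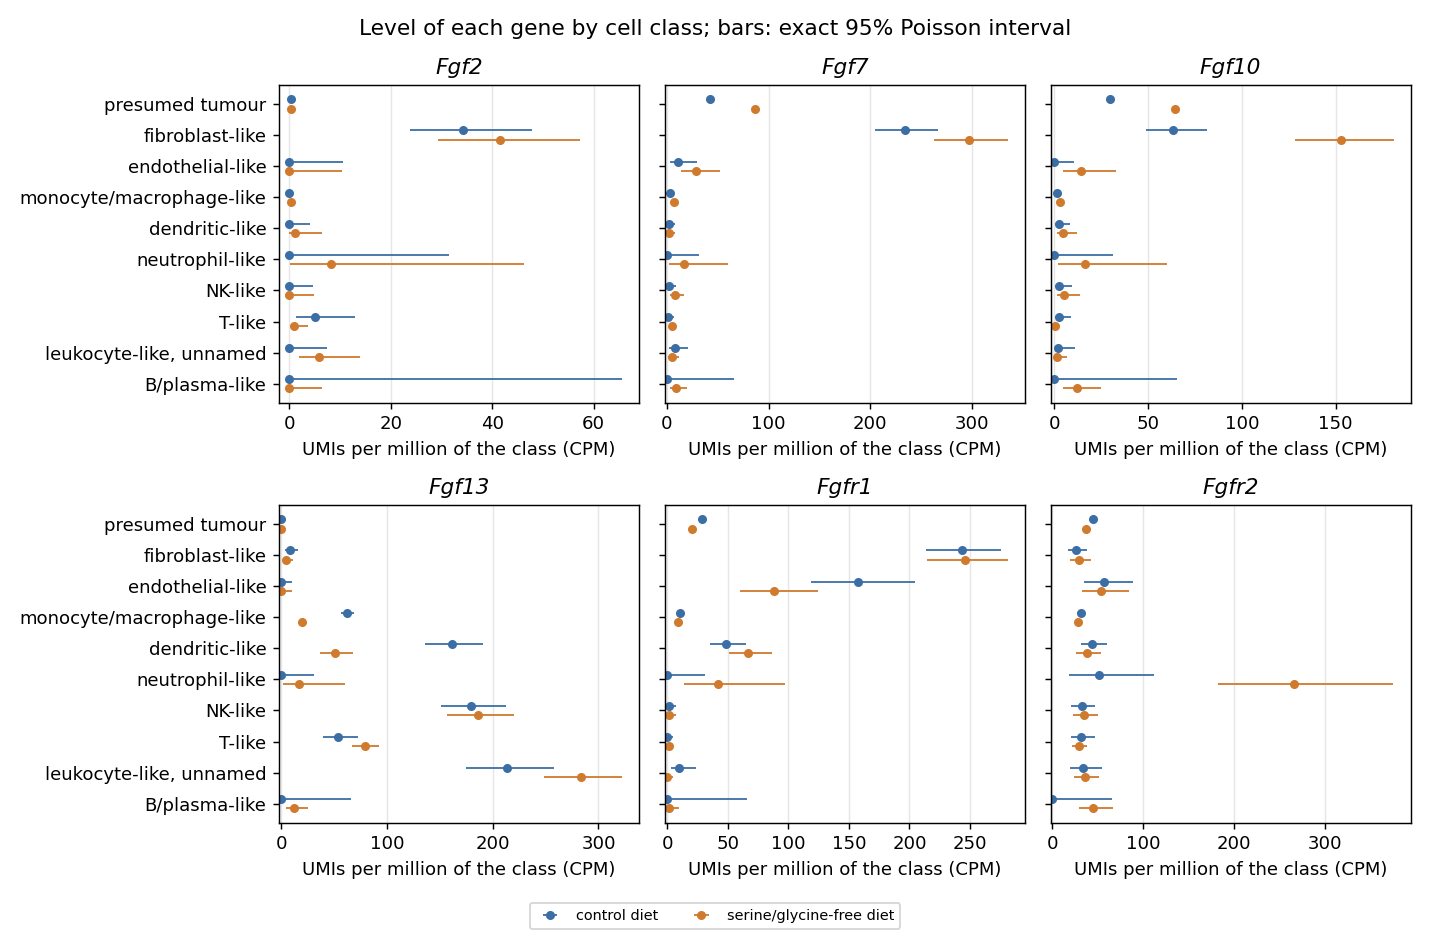
Level of the 6 genes (x axis, CPM, UMIs per 1000000 UMIs of the class) in 10 cell classes (y axis) of the control (blue) and serine/glycine-free (orange) libraries; points are sums over all cells of a class and bars are exact 95% Poisson intervals. Fgf7, Fgf10, Fgf2 and Fgfr1 are highest in fibroblast-like cells, Fgf13 is seen in leukocyte classes, and Fgfr2 lies at a similar level in nearly all classes.

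With depth equalised, a larger share of tumour cells held these ligands in the serine/glycine-free library than in the control library. After each cell was thinned to 2000 UMIs, 8.15% (Clopper-Pearson interval 7.64 to 8.68) of 10677 control tumour cells and 16.3% (15.7 to 17.0) of 13050 serine/glycine-free tumour cells had an Fgf7 UMI, against 33.7% and 43.6% before thinning. For Fgf10 the thinned shares were 5.91% and 11.8%, against 26.5% and 37.5% before. T-like cells, which should lack both ligands, had Fgf7 in 0.599% and 0.743% and Fgf10 in 0.599% and 0% of thinned cells. Median depth before thinning was 12785 and 8725 UMIs in tumour cells and 2674 and 1998 UMIs in T-like cells.

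Every one of the 10 tumour clusters held both ligands, at levels that differed several-fold between clusters. Fgf7 was highest in the cluster led by the matrix genes Aspn and Ogn with Dio2 and Cp, at 105.8 CPM in the control and 229.9 CPM in the serine/glycine-free library. It was lowest in a cluster led by the mitotic genes Ube2c and Pbk, at 16.7 and 31.4 CPM, so control levels spanned 6.32-fold. Fgf10 was lowest in the same cluster, at 6.98 and 16.1 CPM, from fewer than 100 UMIs. Its highest control level was 54.5 CPM in the cluster led by Cryab, Ndrg1 and Bnip3, genes known to respond to low oxygen, beside 50.6 CPM in the Aspn cluster, and these 2 levels had overlapping intervals. In the serine/glycine-free library the Aspn cluster was highest for Fgf10 as well, at 106.2 CPM. None of the 6 genes except Fgf13 was among the variable genes used for clustering.

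**Figure D2:**
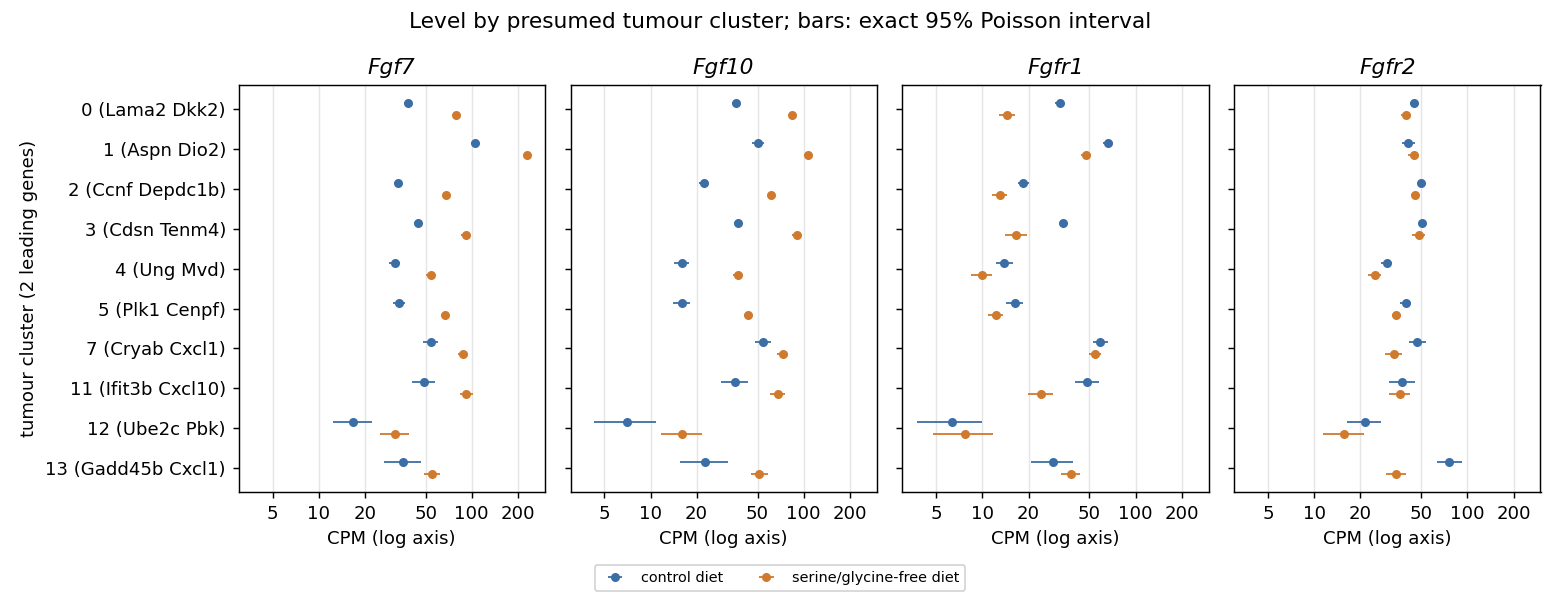
Level in CPM (log axis) of Fgf7, Fgf10, Fgfr1 and Fgfr2 in the 10 presumed tumour clusters, named by number and 2 leading genes, in the control (blue) and serine/glycine-free (orange) libraries; bars are exact 95% Poisson intervals. Fgf7 and Fgf10 lie further right in the serine/glycine-free library in all 10 clusters, and the cluster led by Ube2c and Pbk has the lowest level of all 4 genes.

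The diet ratio of the ligands had the same direction in each tumour cluster. Fgf7 was higher in the serine/glycine-free library in 10 of 10 clusters, with a mean within-cluster log2 ratio of 0.92 and a range from 0.63 in the cluster led by Gadd45b to 1.12 in the Aspn cluster, and it passed 1.5 times in all 10. Fgf10 was higher in 10 of 10 clusters, with a mean of 1.14. It ranged from 0.42 (interval 0.22 to 0.62) in the Cryab cluster to 1.45 (1.33 to 1.58) in a mitotic cluster led by Ccnf, and passed 1.5 times in 8 of the 9 clusters with at least 100 UMIs. Among all genes with enough UMIs, 1.85% to 5.28% per cluster, and 2.85% of all gene-by-cluster ratios, were higher by 1.5 times or more. The Cryab cluster had both the highest control level of Fgf10 and the smallest diet ratio.

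Fibroblast markers were examined beside these ligands, because fibroblasts are their usual source. The summed level of the 12 fibroblast markers in tumour cells was 452 CPM in the control and 577 CPM in the serine/glycine-free library, against 30717 and 36370 CPM in fibroblast-like cells. All 12 were detected in tumour cells, but most of the sum was 1 collagen gene, Col1a2, at 356 and 416 CPM. Lum, Mfap5, Thy1, Cxcl14 and Col5a2 were each under 1 CPM in tumour cells of both libraries. Dcn, the matrix proteoglycan decorin, moved with the ligands, from 36.6 to 97.2 CPM. The Aspn cluster, where Fgf7 was highest, had stromal genes among its leading genes, with the fibroblast marker Dpt at 25.1 and 26.7 CPM against 125 and 161 CPM in fibroblast-like cells, and Dcn at 219.9 and 441 CPM. Its 12 fibroblast markers summed to 884 and 1194 CPM, the highest of the 10 tumour clusters. The part of these stromal genes in the ligand levels was not tested.

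Fibroblast-like cells held the highest level of each ligand. Fgf7 stood at 234 CPM (205 to 266) in the control and 297 CPM (262 to 335) in the serine/glycine-free library, a log2 ratio of 0.34 (0.08 to 0.60), from 232 and 264 UMIs. With called doublets kept, that ratio was 0.063. Fgf10 stood at 63.6 CPM (48.8 to 81.3) and 153 CPM (128 to 181), a log2 ratio of 1.27 (0.83 to 1.72). The Fgf10 intervals did not overlap and those of Fgf7 did. Of 3356 genes with enough UMIs in fibroblast-like cells, 6.47% were higher by 1.5 times or more and 5.07% were lower. Despite these levels, fibroblast-like cells were few: tumour cells held 95.8% and 96.9% of all Fgf7 UMIs and 98.2% and 97.8% of all Fgf10 UMIs of their libraries. Genes shared by the tumour clusters were also counted in fibroblast-like cells. Hmga2 was there at 30.2% and 21.2%, Rhox5 at 14.0% and 13.9% and Krt20 at 5.47% and 18.1% of their tumour levels. Fgf10 in fibroblast-like cells was at 214% and 237% of the tumour level. The macrophage markers in these cells summed to 455 and 245 CPM and the pericyte markers to 417 and 233 CPM. The part of these RNAs in the fibroblast ratios was not tested.

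Fgf2, the basic fibroblast growth factor, had its highest level in fibroblast-like cells, which gave 40.0% and 43.5% of its UMIs, while the far more numerous tumour cells gave 55.3% and 43.5%. It gave 34 and 37 UMIs in fibroblast-like cells, 34.3 CPM (23.8 to 47.9) in the control and 41.6 CPM (29.3 to 57.4) in the serine/glycine-free library, with overlapping intervals. In tumour cells it gave 47 and 37 UMIs, or 0.319 and 0.291 CPM, under the 100 UMIs set for a ratio. No Fgf2 UMI was found in the 1558 monocyte/macrophage-like cells of the control library, which allows up to 0.411 CPM at 3 counts, and 2 were found in those of the serine/glycine-free library. The Fgf2 locus (chr3:37348346-37410108, plus strand, GENCODE M21 on GRCm38) overlaps the antisense gene Nudt6, so reads of the pair are uncertain where counting does not use strand.

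In monocyte/macrophage-like cells Fgf7 and Fgf10 were near the level of free RNA. Monocyte/macrophage-like cells held Fgf7 at 3.15 and 7.49 CPM, from 23 and 48 UMIs, and Fgf10 at 1.37 and 2.96 CPM, from 10 and 19 UMIs. Those Fgf7 levels were 7.51% and 8.65% of the tumour level. The tumour transcripts Hmga2 and Rhox5 stood in the same cells at 4.34% and 4.33%, and at 5.28% and 7.77%, of their tumour levels. No expression of Fgf7 or Fgf10 by macrophages is read from counts of this size. Endothelial-like cells held Fgf7 at 11.4 and 28.4 CPM, from 4 and 10 UMIs, and 5 of the 10 came from 1 cell. That was 27.2% and 32.8% of the tumour level. In the same cells Hmga2 stood at 8.99% and 10.6%, Rhox5 at 8.18% and 21.8% and Krt20 at 40.7% and 24.4% of their tumour levels. No expression of Fgf7 by endothelial-like cells is read from these counts.

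The receptor Fgfr1 was highest in stromal cells and lower in tumour cells of the serine/glycine-free library than in those of the control. In fibroblast-like cells it stood at 243 CPM (213 to 276) and 246 CPM (215 to 281), and the log2 ratio of 0.02 had an interval from −0.25 to 0.29. Endothelial-like cells, 48 and 60 in number, followed at 157 CPM (118 to 205) and 87.9 CPM (59.7 to 125), from 55 and 31 UMIs. Dendritic-like cells held 48.6 CPM (35.2 to 65.5) and 67.1 CPM (50.8 to 87.0). In the serine/glycine-free library the intervals of endothelial-like and dendritic-like cells overlapped. Tumour cells held 28.6 CPM (27.7 to 29.5) and 20.4 CPM (19.6 to 21.2), a log2 ratio of −0.49 (−0.56 to −0.42), which is under the 1.5-fold mark. Monocyte/macrophage-like cells held 10.4 and 8.74 CPM, and NK-like cells 1.28 and 1.33 CPM from 1 UMI each.

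Fgfr1 differed several-fold between tumour clusters. It was highest in the Aspn cluster, at 66.3 and 47.5 CPM, and in the Cryab cluster, at 58.9 and 54.5 CPM, and lowest in the Ube2c and Pbk cluster, at 6.28 and 7.67 CPM from 18 and 21 UMIs. Over the 9 clusters with at least 100 UMIs, the Fgfr1 levels spanned 4.77-fold in the control and 5.52-fold in the serine/glycine-free library, against 6.32-fold and 7.32-fold for Fgf7 over 10 clusters. The receptor was below its control level in 8 of 10 clusters. The ratio passed 1.5 times in 3 of 9 clusters with enough UMIs, where 1.27% to 3.99% of all genes per cluster, and 2.13% of all gene-by-cluster ratios, were lower by as much. Those were the cluster led by Lama2 and Dkk2 (32.1 and 14.5 CPM, log2 −1.14), the cluster led by Cdsn and Tenm4 (33.7 and 16.6 CPM, log2 −1.02) and the interferon cluster led by Ifit3b and Cxcl10 (48.5 and 24.1 CPM, log2 −1.01). In the Cryab cluster the interval of the ratio, −0.32 to 0.10, included 0. The highest ratio, 0.39 in the Gadd45b cluster, also had an interval that included 0, from −0.10 to 0.91. After thinning to 2000 UMIs, 6.04% and 4.18% of tumour cells held an Fgfr1 UMI, and no thinned T-like cell did in either library.

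**Figure D3:**
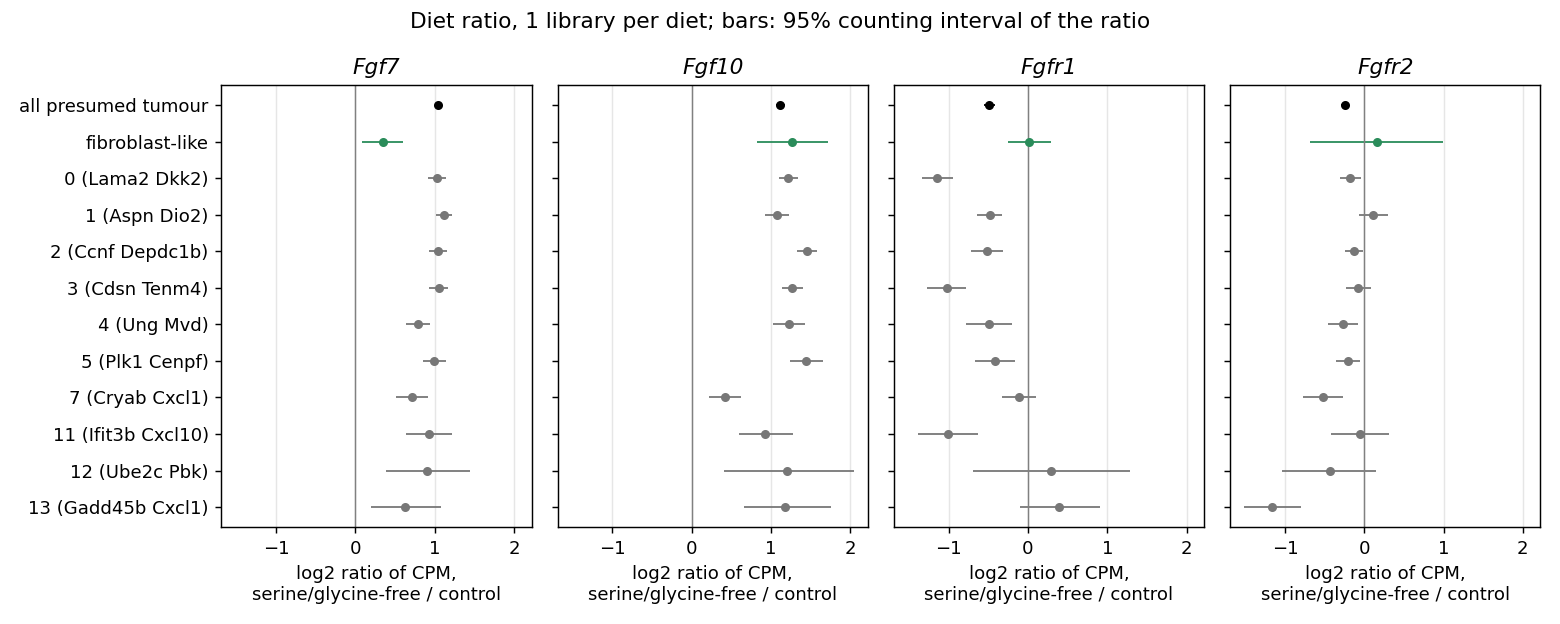
Log2 ratio of CPM, serine/glycine-free over control library (x axis), of Fgf7, Fgf10, Fgfr1 and Fgfr2 in all presumed tumour cells (black), fibroblast-like cells (green) and the 10 tumour clusters (grey); bars are 95% counting intervals of the ratio and do not cover differences between animals. Fgf7 and Fgf10 lie right of 0 in all 10 clusters, Fgfr1 lies left of 0 in 8 and Fgfr2 in 9.

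Fgfr2, the receptor of Fgf7 and Fgf10, did not follow the cell classes. It stood at 44.3 CPM (43.2 to 45.4) and 37.5 CPM (36.4 to 38.6) in tumour cells, a log2 ratio of −0.24 (−0.30 to −0.19). Fibroblast-like cells held 26.2 and 29.2 CPM, endothelial-like cells 57.2 and 53.9 CPM, monocyte/macrophage-like cells 31.5 and 28.4 CPM, T-like cells 31.5 and 29.0 CPM and NK-like cells 32.1 and 34.6 CPM. Lymphocytes are not known for this receptor, yet the Fgfr2 level of T-like cells was 71.1% and 77.4% of the tumour level. In T-like cells Hmga2 was at 2.66% and 2.24% and Rhox5 at 3.21% and 4.06% of their tumour levels. The part of free RNA in the Fgfr2 counts was not tested. After thinning, 4.79% and 7.18% of T-like cells and 8.16% and 7.05% of tumour cells held an Fgfr2 UMI.

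The gene model of Fgfr2 bears on what was counted. GENCODE M21 places it on the minus strand of chr7:130162451-133123350, a span of 2.96 Mb, because 1 of its 27 transcripts extends far beyond the 104 kb that RefSeq gives (chr7:130162451-130266808). The long model overlaps 69 other genes, 30 of them protein coding and 14 of those on the same strand, among them Ate1, Nsmce4a, Oat and Ctbp2. The annotation release, the strand setting and the treatment of introns that the authors used could not be read from the labels or file headers. The Fgfr2 counts are therefore uncertain in every class, and the part of neighbouring genes in them was not tested.

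Within tumour cells Fgfr2 varied less between clusters than Fgf7 and Fgfr1. Control levels ran from 21.3 CPM in the Ube2c and Pbk cluster to 76.3 CPM in the Gadd45b cluster, a 3.59-fold span, beside 3.41-fold for Fgf10 over the 9 clusters with enough UMIs for that gene. Fgfr2 was below its control level in 9 of 10 clusters, with a mean log2 ratio of −0.29. The ratio passed 1.5 times in 1 of 10 clusters, the Gadd45b cluster, from 76.3 to 34.1 CPM (log2 −1.16), which held 98 control cells. In that cluster 3.99% of all genes with enough UMIs were lower by as much, the highest share of the 10 clusters. Of all gene-by-cluster ratios 2.13% were. In the Aspn cluster, where Fgf7 was highest, Fgfr2 stood at 41.2 and 44.6 CPM.

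Fgf13 had a distribution of its own, among leukocytes. Tumour cells gave 17 and 26 UMIs, 0.115 and 0.204 CPM, and fibroblast-like cells gave 8 and 4 UMIs. The monocyte-like cluster held 200.4 CPM (180.0 to 222) in the control and 60.7 CPM (48.1 to 75.5) in the serine/glycine-free library, and the C1q macrophage-like cluster 18.6 CPM (15.2 to 22.6) and 9.43 CPM (6.95 to 12.5). Over both clusters Fgf13 went from 62.5 CPM (56.9 to 68.5) to 20.0 CPM (16.7 to 23.7), a log2 ratio of −1.65 (−1.94 to −1.36). The intervals did not overlap in either cluster. Of 8967 genes with enough UMIs in monocyte/macrophage-like cells, 2.32% were lower by 1.5 times or more and 2.53% were higher. With doublets kept the ratio was −2.02, but the class then took in a further cluster of 383 and 695 cells. That cluster had medians of 15012 and 11427 UMIs per cell, and its part in the ratio was not tested. After thinning, 20.6% and 9.16% of monocyte-like cells and 2.64% and 1.46% of macrophage-like cells held an Fgf13 UMI.

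In dendritic-like cells Fgf13 differed between subtypes. The cluster led by Xcr1 and Clec9a, markers of type 1 conventional dendritic cells, held 193.7 CPM (163 to 228) and 62.6 CPM (45.3 to 84.3), from 143 and 43 UMIs. The cluster led by Siglech, a marker of plasmacytoid dendritic cells, gave no UMI in 39 and 68 cells. Over both, the level was 161.6 and 50.6 CPM, a log2 ratio of −1.67 (−2.20 to −1.17). Of 3084 genes with enough UMIs in dendritic-like cells, 2.82% were lower by 1.5 times or more. A single control cell gave 21 of the 143 UMIs, and without the highest cell of each library the ratio was −1.78.

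The CPM ratios of lymphocyte classes did not share that direction. NK-like cells, which were led by granzymes and Ncr1, held Fgf13 at 179.8 CPM (151 to 212) and 186 CPM (157 to 220), a log2 ratio of 0.05 (−0.30 to 0.40). T-like cells held 54.2 CPM (39.2 to 73.0) and 79.3 CPM (67.2 to 92.9), a log2 ratio of 0.55 (0.05 to 1.07), which was 0.22 with doublets kept. The class then took in a further cluster of 115 and 464 cells, with medians of 15022 and 11446 UMIs per cell. The share of T-like cells with an Fgf13 UMI pointed the other way, at 13.1% and 10.3%, or 10.2% (6.04 to 15.8) and 9.16% (6.53 to 12.4) after thinning, so no order is read for this class. An unnamed leukocyte cluster led by Bcl11b, Tcf7, Il2ra and Ikzf2 held the highest levels, 213.5 CPM (175 to 258) and 284 CPM (249 to 322), a log2 ratio of 0.41 (0.07 to 0.75). In this cluster 9 genes of a marker panel passed. A name was withheld because its cells were shallow, with medians of 1562.5 and 1016.5 UMIs, and no gene of that panel was among its leading genes. Its shares of cells with a UMI were 17.8% and 20.6%, and after thinning, which left 76 and 68 cells, 28.9% (19.1 to 40.5) and 22.1% (12.9 to 33.8), so its order is not read either. B/plasma-like cells gave 0 and 7 UMIs and neutrophil-like cells 0 and 2. Monocyte/macrophage-like cells therefore gave 49.9% of all Fgf13 UMIs of the control library but 17.3% of those of the serine/glycine-free library, while the unnamed leukocyte cluster gave 11.6% and 32.0%. These shares also move with the number of cells of each class: the unnamed cluster was 1.91% and 3.78% of cells.

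**Figure D4:**
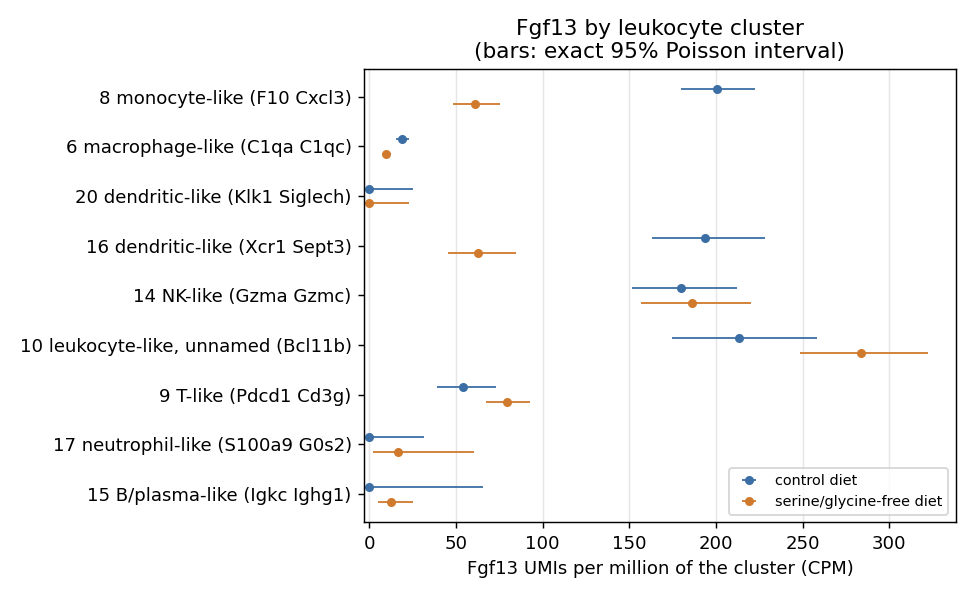
Fgf13 level (x axis, CPM, UMIs per 1000000 UMIs of the cluster) in 9 leukocyte clusters of the control (blue) and serine/glycine-free (orange) libraries, with exact 95% Poisson intervals. Monocyte-like, C1q macrophage-like and Xcr1 dendritic-like clusters lie lower in the serine/glycine-free library, while NK-like, T-like and unnamed leukocyte clusters do not.

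Ligand and receptor were seldom caught in the same tumour cell at the low depth set by thinning. After thinning to 2000 UMIs, Fgf7 and Fgfr2 were both found in 80 of 10677 control tumour cells (0.749%) and in 170 of 13050 serine/glycine-free tumour cells (1.30%). Shares multiplied within clusters gave 71.2 and 157.6 cells. Fgf7 and Fgf10 were found together in 59 and 306 tumour cells, where multiplied shares gave 57.3 and 291 cells. The observed number was 1.03 and 1.05 times the product, so holding 1 ligand went with little excess of the other beyond the cluster. In fibroblast-like cells, Fgf7 and Fgfr1 were both found in 12 of 102 control cells (11.8%) and in 29 of 122 serine/glycine-free cells (23.8%), against products of 15.6 and 21.6 cells. With tumour cells thinned to 5000 UMIs instead, Fgf7 and Fgfr2 were both found in 3.30% and 5.08%, at 1.03 and 1.04 times the product within clusters. Fgf7 and Fgfr1 were both found in 2.43% and 3.16% of these, at 0.970 and 1.21 times the product.

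Across 39 sums of a cluster in a library, with at least 50 cells each, Fgf7 and Fgf10 had among the most alike patterns. Likeness is Pearson's r of log2(CPM + 1), given as a description with no p, since the sums share 2 libraries and their depth. Of 13400 genes compared, the 3 nearest to Fgf7 were Lhfp (0.95), Fgf10 (0.94) and Col16a1 (0.93), and the 3 nearest to Fgf10 were Fgf7, Cacna2d1 (0.94) and Lhfp (0.92). Over the 20 sums of tumour clusters alone, Fgf7 and Fgf10 kept an r of 0.91, and both had Slc1a2 among their 3 nearest genes (0.95 and 0.94). Over the 39 sums again, nearest to Fgf2 were Kcnma1 (0.93), Fbn2 (0.89) and Ctxn1 (0.88). Nearest to Fgf13 were Ccl5 (0.90), Xlr4b (0.90) and Hopx (0.90), and Fgf13 ran against Fgf10 with an r of −0.70. Over the 39 sums the nearest gene reached 0.85 for Fgfr1 (Abca5) and 0.81 for Fgfr2 (Rab17), and over the 20 tumour sums 0.91 (Cerk) and 0.95 (Spata1). Between Fgfr2 and its ligands r was −0.01 for Fgf7 and 0.09 for Fgf10 over the 39 sums, and 0.28 and 0.39 over the tumour sums.

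Most other genes of the pathway stayed under the 1.5-fold mark in tumour cells, as most genes did. Of 84 genes in 7 lists, 53 had at least 100 UMIs in tumour cells and 7 of these passed 1.5 times, 4 higher and 3 lower in the serine/glycine-free library. Without the 4 members that were tested, 5 of 49 genes (10.2%) passed, beside 7.96% of all genes in either direction. Of 18 secreted ligands 4 were tested: Fgf7 and Fgf10 were higher, Fgf21, a hormone-like member induced by amino acid shortage, was lower at 1.83 and 0.793 CPM (log2 −1.21), and 1 did not pass. Of 5 receptors 3 were tested and none passed: besides Fgfr1 and Fgfr2, the kinase-lacking Fgfrl1 had a ratio of 0.13. Of 4 intracellular homologous factors only Fgf14 was tested, at 0.17.

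Co-receptors and heparan sulphate enzymes, which hold the ligand on the receptor, included the remaining lower calls. Of 14 co-receptors and carriers 7 were tested, with a median log2 ratio of 0.02 beside 0.03 over all genes. The syndecan Sdc1 was lower (7.74 and 4.82 CPM, −0.68), Gpc1 at −0.58 and Hspg2 at −0.36 did not pass, and Sdc3 was higher at a low level (0.339 and 0.534 CPM, 0.66). The highest ratios after Sdc3 were 0.37 for Fgfbp3 and 0.18 for Sdc4. Of 12 heparan sulphate enzymes 9 were tested, with a median of −0.13. The sulphatase Sulf2 was lower (3.63 and 2.30 CPM, −0.66), Hs6st1 (−0.36) and Glce (−0.35) did not pass, and the highest were Extl3 (0.12), Ndst2 (0.05) and Ndst1 (−0.06).

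Adaptors and genes induced by the cascade, with 1 exception, stayed under the 1.5-fold mark. Of 12 adaptors and kinases 11 were tested and none passed, with a median of 0.09. Frs3 (0.28) and Map2k1 (0.25) were among the highest ratios, and Frs2 (−0.10), Sos1 (−0.07) and Shc1 (−0.07) were the lowest. Of 19 induced targets and feedback inhibitors 18 were tested, with a median of 0.11, and 1 passed: Ier3, an immediate-early survival gene, at 36.1 and 58.7 CPM (0.70). Egr1 at 295 and 382 CPM (0.37) and Etv1 (0.28) followed. Il17rd (−0.42), Dusp5 (−0.33) and Spred2 (−0.23) were lowest, while 12 of the 18 had a ratio above 0.

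**Figure D5:**
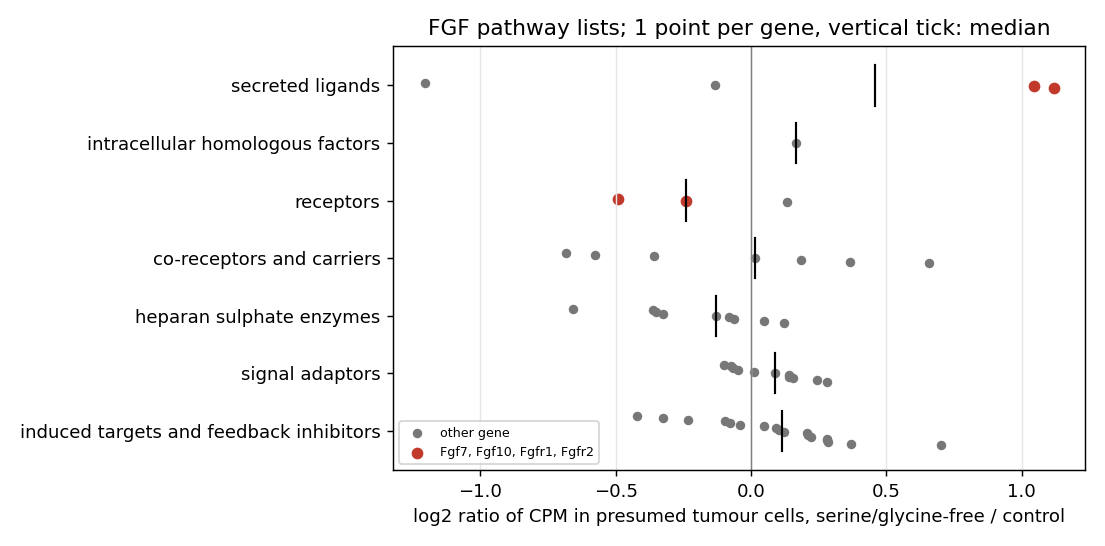
Log2 ratio of CPM in presumed tumour cells, serine/glycine-free over control library (x axis), of the 53 genes with at least 100 UMIs in 7 FGF pathway lists (y axis); each point is 1 gene, red points are Fgf7, Fgf10, Fgfr1 and Fgfr2, and the vertical tick is the median of the list. Fgf10 at 1.12 and Fgf7 at 1.04 are the highest points, and the adaptor list has the narrowest spread of the lists with more than 1 gene.

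In the small fibroblast-like class 30 of the 84 genes were tested and 8 passed 1.5 times, 7 of 27 (25.9%) without the 6 genes, beside 11.5% of all genes in either direction. That count of 8 was 17 of 55 with at least 20 UMIs and 2 of 30 at 2 times, settings at which the share over all genes was not computed. Besides Fgf10, the higher genes were Sdc4 (202 and 343 CPM, 0.77), Gpc3 (35.3 and 86.6 CPM, 1.29), Fosl1 (0.81), Ccnd1 (0.65) and Ier3 (0.77), and the lower genes were Sdc1 (540 and 331 CPM, −0.71) and Gpc1 (144 and 82.1 CPM, −0.81). Sdc1 and Gpc1 thus had ratios below 0 in tumour and in fibroblast-like cells. In monocyte/macrophage-like cells 39 genes were tested and 5 passed: Fgf13 with Dusp5 (32.8 and 21.7 CPM, −0.60) and Egr1 (149 and 98.6 CPM, −0.60) were lower, and Sdc1 (0.62) and Sdc2 (0.62) were higher at under 12 CPM. Without Fgf13, 4 of 36 genes (11.1%) passed, beside 4.85% of all genes. The ratio of Egr1 was therefore above 0 in tumour cells and below 0 in monocyte/macrophage-like cells, a difference that was not tested.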

How the data were processed

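Single-cell RNA was sequenced from mouse tumours in 1 control-diet and 1 serine/glycine-free library. The authors deposited raw UMI counts per gene and cell as filtered 10x matrices (14774 and 20662 barcodes). Cell Ranger is given as 7.0.1 per the file headers and as 2.2.2, with build mm10, per the submitters' processing notes, and the conflict was not resolved. The 6 genes and all lists were chosen with earlier results of these data known.

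Cells with at least 500 UMIs, 300 genes and at most 20% mitochondrial UMIs were kept (14159 and 20312). Scrublet in scanpy 1.11.5, at an expected rate of 0.8% per 1000 cells, called 682 (4.82%) and 2430 (12.0%) doublets, which were removed. Counts were scaled per cell and log-transformed; 2000 variable genes, 30 principal components, 15 neighbours and Leiden resolution 1 gave 22 clusters, named from marker panels that needed at least 3 genes. A cluster of 26 and 9 cells stayed unnamed and entered no comparison. Levels are UMIs per 1000000 UMIs of the class (CPM). Ratios carry exact conditional binomial intervals at 95%, called at 1.5 times or more for genes of at least 100 UMIs; levels carry Poisson and shares Clopper-Pearson intervals. UMI counts of cells are not replicates. On simulated counts the ratios were checked against known changes. Named genes were the 6 members, the 3 highest and 3 lowest tested genes of each list in tumour cells, the 3 genes most alike each member, any list gene past 1.5 times in the other 2 classes, and markers; 2 genes that this rule names are not reported here. Alternatives covered scaling (median of ratios, edgeR 4.0.16 TMM), filters, doublets, resolution, clustering without pathway genes, weighting, pseudocount and leaving out the highest cell.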

Additional observations from a re-analysis of the deposited data

Results flagged for a closer look

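The CPM diet ratio of Fgf13 pointed in opposite directions in different leukocyte classes. Its log2 ratio, serine/glycine-free over control, was −1.65 in monocyte/macrophage-like cells and −1.67 in dendritic-like cells, but 0.55 in T-like cells and 0.41 in the unnamed leukocyte-like cluster. In each of these 4 classes the counting interval excluded 0. The depth-equalised shares of cells with an Fgf13 UMI were 10.2% and 9.16% in T-like cells, with overlapping intervals. In the unnamed cluster they were 28.9% and 22.1%, also with overlapping intervals. Cells too shallow for thinning were left out: 70 of 237 control and 405 of 809 serine/glycine-free T-like cells. In the unnamed cluster 182 of 258 and 608 of 676 cells were left out. The depth-equalised shares therefore cover only the deeper cells and do not decide the direction. Over all cells the shares were 13.1% and 10.3% in T-like cells and 17.8% and 20.6% in the unnamed cluster. The difference between classes was not tested, since each diet has 1 library. The serine/glycine-free library had the lower median depth in all 4 classes, at 2857 against 4087.5 UMIs in monocyte/macrophage-like cells and 1998 against 2674 UMIs in T-like cells. Its part in the ratios was not tested.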

How the results depend on the processing

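Over 212 recomputed values no called ratio changed sign. The ratios of Fgf7 (0.92 to 1.16), Fgf10 (1.08 to 1.14), Fgfr1 (−0.53 to −0.39) and Fgfr2 (−0.29 to −0.19) in tumour cells kept their direction in all 13 alternatives each. Fgf7 in tumour cells was 1.16 as a mean over cells, 0.92 as a mean of within-cluster ratios and 1.09 without the mitotic clusters. As means over cells Fgfr1 was −0.39 and Fgfr2 −0.19. With doublets kept, Fgf7 in fibroblast-like cells was 0.063 and Fgf13 in monocyte/macrophage-like cells −2.02, where the class took in a further cluster of deep cells. Fgfr1 in fibroblast-like cells, near 0, kept its sign in 4 of 11 alternatives, and Fgfr2 there, on 52 UMIs, was 1.16 at resolution 2. The cause was not tested. Pathway genes past the mark in tumour cells numbered 7 of 53 tested, but 13 of 67 with at least 20 UMIs. With no filter beyond 1 UMI in each library they numbered 18 of 77. At a lower mark they numbered 17 of 53, and at 2 times 3 of 53. The share over all genes was not computed at these other settings, so the counts are not compared with it. The other scalings moved log2 ratios by at most 0.04. The T-like, NK-like, dendritic-like and unnamed leukocyte ratios of Fgf13 were recomputed without the highest cell and with doublets kept, both chosen after seeing the data. No paired analysis was possible because each diet has 1 library. Low counts limit what can be read of Fgf2 and Fgf13 in tumour cells, with at most 47 UMIs per library.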

Other observations

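A few values belong to no comparison above. Fgfr1 differed between the 2 dendritic-like clusters: the Siglech cluster held 102.4 CPM (57.3 to 169) in the control and 160 CPM (104 to 234) in the serine/glycine-free library, and the Xcr1 cluster 37.9 CPM (25.2 to 54.8) and 45.1 CPM (30.7 to 64.1). The clusters were made from the same cells, so this is a description. Fgf13 was found in the Xcr1 cluster and not in the Siglech cluster, the reverse order.

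Neutrophil-like cells of the serine/glycine-free library gave 32 Fgfr2 UMIs, or 266 CPM, and 17 of the 32 came from 1 cell, so this level rests on that cell. Fgfr3 gave 59 and 20 UMIs in tumour cells, or 0.400 and 0.157 CPM, under the 100 UMIs set for a ratio. The small unnamed cluster of 26 and 9 cells gave 6 and 5 Fgf7 UMIs and 1 and 8 Fgf10 UMIs.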
